A study of Mus musculus with 6 samples.

Results

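Nonmuscle myosin II is the motor that slides actin filaments past each other, and here the genes for its chains and for the enzymes that switch it were followed in RNA of cells sorted as retinal ganglion cells (RGCs), which send the output of the retina to the brain. The members were the 10 genes listed by symbol for this purpose, of 55573 genes in the count table: the heavy chain genes Myh9, Myh10 and Myh14, the light chain genes Myl6, Myl9, Myl12a and Myl12b, the light chain kinase gene Mylk, and the phosphatase subunit genes Ppp1r12a and Ppp1cb. All 10 were in the table and had at least 1 count, and 9 passed the filter on low counts (all but Myl12b). The mice were C57BL/6 animals carrying floxed alleles of Myh9 and Myh10 in every group. AAV2, a viral vector, had been injected into the vitreous 2 weeks before the tissue was taken, carrying GFP in the controls (labelled WT, 3 libraries) or Cre recombinase, which removes floxed sequence (labelled dKO, 3 libraries). Each library pooled 3 retinas from 3 mice, so a library mixes animals, and the labels do not say whether libraries share mice. P-values therefore set differences against the spread of these 6 libraries only, part of which may be technical. The sources used here do not give the promoter that drove Cre, the age of the mice or the floxed exons. The comparison addresses how the sorted cells differ after Cre delivery aimed at both genes.

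Each myosin II molecule holds a pair of heavy chains, which carry the motor head and the coiled tail, and each heavy chain binds an essential and a regulatory light chain. Phosphorylation of the regulatory light chain by kinases such as the product of Mylk turns the motor on, and myosin phosphatase, built from the targeting subunit encoded by Ppp1r12a and the catalytic subunit encoded by Ppp1cb, turns it off. In neurons this motor is known for pulling back the growth cone and for the actin rings of the axon, and in vessel walls and immune cells for contraction and migration.

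The regulatory light chain genes are related, and are shown here because Myl12a and Myl12b are near-copies whose reads can be hard to tell apart. The sequences are the coding bases of the first coding exon of each gene in GENCODE M21 (build GRCm38), 5′ to 3′ on the coding strand, with capitals marking bases that differ from Myl12a. The exon part lies at chr17:70996697-70996880 (minus strand) for Myl12a, chr17:70977048-70977231 (minus strand) for Myl12b and chr2:156778545-156778728 (plus strand) for Myl9.
Myl12a: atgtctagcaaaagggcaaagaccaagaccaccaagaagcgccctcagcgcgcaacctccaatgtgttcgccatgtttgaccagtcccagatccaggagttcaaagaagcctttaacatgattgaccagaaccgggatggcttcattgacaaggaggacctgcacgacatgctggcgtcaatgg
Myl12b: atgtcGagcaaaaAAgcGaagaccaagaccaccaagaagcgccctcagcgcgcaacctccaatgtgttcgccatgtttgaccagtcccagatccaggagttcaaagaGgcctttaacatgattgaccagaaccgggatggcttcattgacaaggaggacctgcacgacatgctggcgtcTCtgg
Myl9: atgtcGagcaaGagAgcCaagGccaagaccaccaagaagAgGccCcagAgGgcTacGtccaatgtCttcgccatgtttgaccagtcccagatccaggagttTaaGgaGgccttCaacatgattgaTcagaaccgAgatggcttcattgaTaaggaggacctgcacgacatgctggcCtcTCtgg
Of these 184 bases, 7 differed between Myl12b and Myl12a and 23 between Myl9 and Myl12a. Over the whole coding sequence of 516 bases, Myl12a and Myl12b were 96.5% identical, with a longest identical run of 102 bases. Myl9 was 85.7% identical to Myl12a and 86.4% identical to Myl12b, with no identical run over 35 bases.

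A second feature of this locus is annotated. Myl12a (ENSMUSG00000024048, chromosome 17, 70993656 to 71002878) and Myl12b (ENSMUSG00000034868, chromosome 17, 70973133 to 70990890) are neighbours on the minus strand, and a read-through gene model that joins them, listed in the table as Gm49909, runs from 70974119 to 71002208. Its exons cover 516 of 516 coding bases of Myl12b and 346 of 516 of Myl12a. The Gm49909 row had 0 counts over the 6 libraries together. The sources used here do not say how the authors' counting treated reads that match more than 1 gene or place, and the part of this overlap in the low Myl12a and Myl12b counts was not tested. On the opposite strand, Myom1 overlaps 207 exon bases of Myl12a and held 73 counts, against 119 for Myl12a, so that without a stated strand setting reads of the 2 genes there cannot be told apart.

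The heavy chains were much easier to tell apart. Of all 50-base windows of the coding transcripts, 1.11% for Myh9, 0.840% for Myh10 and 0 of 6851 for Myh14 were also found in a transcript of another gene. The longest run shared by Myh9 and Myh10 was 122 coding bases in a single exon of each, at chr15:77786539-77786660 (minus strand) and chr11:68768199-68768320 (plus strand) in GRCm38.
Myh9 and Myh10: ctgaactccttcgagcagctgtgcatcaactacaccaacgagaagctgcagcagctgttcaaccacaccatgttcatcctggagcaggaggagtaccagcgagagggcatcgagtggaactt
The longest run shared with Myh14 was 47 bases for Myh9 and 49 bases for Myh10. Among the other members, the share of windows also found in another gene was 16.7% for Myl6, with 5 processed pseudogenes, 19.1% for Myl12a and 30.6% for Myl12b, and 0 for Myl9, Mylk, Ppp1r12a and Ppp1cb. Most of these windows were shared with the overlapping model Gm49909, 551 of 559 for Myl12a and 691 of 691 for Myl12b. Between Myl12a and Myl12b themselves 192 windows were shared. The pseudogene rows that share windows with Myl6 held at most 4 counts each over all libraries. The exons of Ppp1cb overlapped a same-strand model, Gm43312, over 1908 bases, and that row held 1 count.

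**Figure D1:**
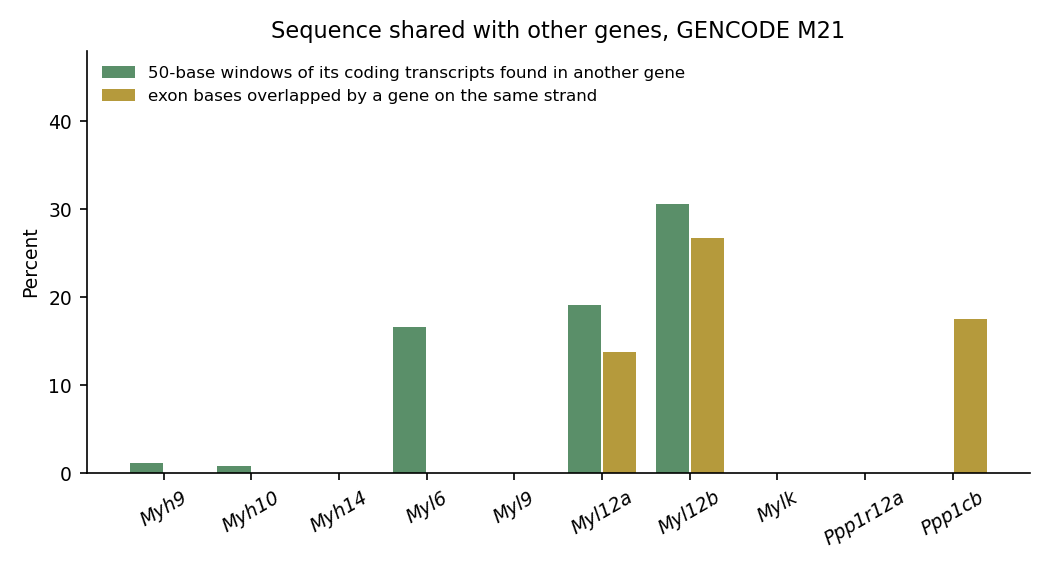
For each member on the x axis, bars give the percent of 50-base windows of its coding transcripts that also occur in another gene (green) and the percent of its exon bases covered by another gene on the same strand (yellow). Myl12b stands highest on both (30.6% and 26.7%), while Myh9 and Myh10 are near 1% on the first and at 0 on the second. For Myl12a and Myl12b, most of both bars is the overlap with Gm49909 at the same locus.

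Library depth limited every value. Total counts were 4569880 to 6146226 per library, but a single ribosomal RNA row held 89.8% to 92.8% of 5 libraries and 64.2% of dKO replicate 3. The counts left for all other genes were 346037 to 576060 in those 5 libraries and 1636581 in dKO replicate 3, which therefore supplies more of the counts than any other library. Levels are given as CPM, the standard unit of counts scaled to a common library size, after TMM scaling, a method that sets libraries to a common size by the bulk of their genes; 1 count was worth 0.317 CPM in the shallowest library and 0.0653 CPM in dKO replicate 3.

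None of the 9 tested members was called different between the groups by the edgeR quasi-likelihood test, at a Benjamini-Hochberg adjusted p under 0.05 over all 8444 genes tested, where 1.92% of genes were called, 0.734% higher in dKO and 1.18% lower. At an unadjusted p under 0.05 the number was also 0 of 9, against 12.5% of all genes, and DESeq2 and limma-voom called 0 of 9. The WT and dKO levels overlapped in all 10 members, 9 of them tested, and 17.0% of all genes tested had groups that did not overlap. With so few members and shares this low, these counts of 0 are not a result about the members. The median log2 fold change (dKO over WT) was 0.061 over the 9 tested members and -0.00072 over all genes tested.

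**Figure D2:**
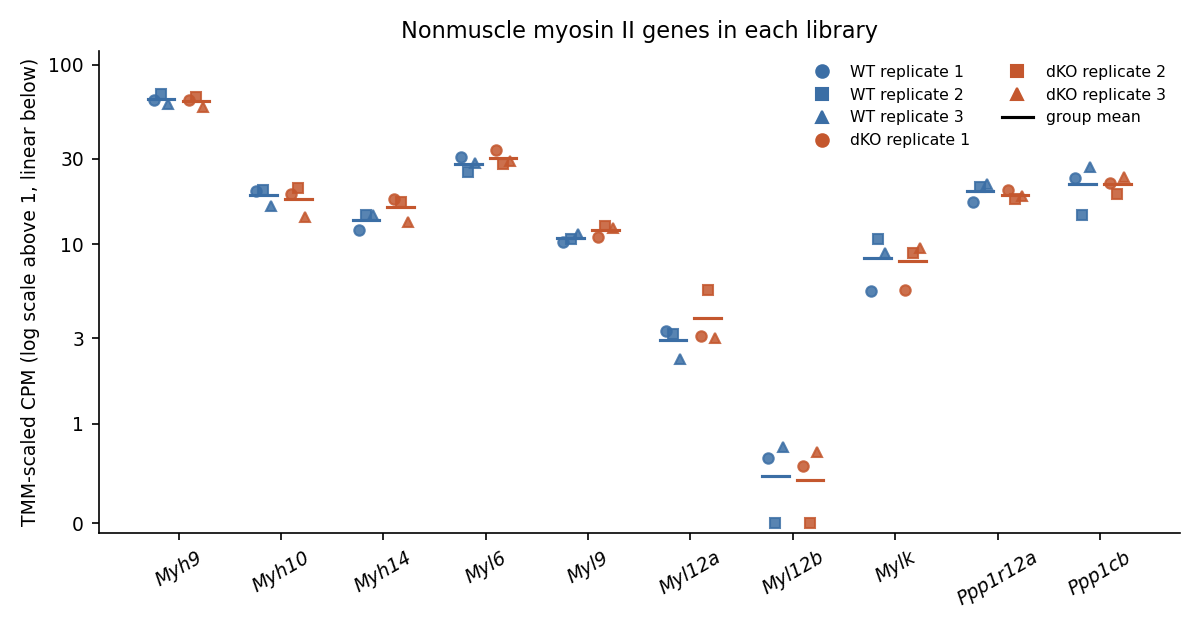
TMM-scaled CPM of the 10 members in each library, on a log scale above 1 CPM and a linear scale below it, with WT in blue, dKO in orange, a symbol for each replicate and a line at each group mean. The orange and blue points of every gene share a range, and Myl12b is at 0 in 1 library of each group.

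Myh9, which encodes the heavy chain of myosin IIA, is targeted by the Cre vector. Its 3 WT libraries, in replicate order here and for all values that follow, had 291, 216 and 238 counts and its 3 dKO libraries 332, 273 and 891. As scaled levels these were 63.6, 68.4 and 60.7 CPM in WT and 63.7, 66.2 and 58.2 CPM in dKO. The lowest library was dKO replicate 3 and the highest WT replicate 2, with the remaining values between them in mixed order. The log2 fold change was -0.044 ± 0.098 (SE; edgeR adjusted p = 0.908), and its 95% interval runs from a change of -15.3% to one of 11.0%. Myh9 (ENSMUSG00000022443) lies on chromosome 15, 77760587 to 77842175 in GRCm38.

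Myh10, the other targeted gene, encodes the heavy chain of myosin IIB, the main form in neurons. Its levels were 19.9, 19.96 and 16.3 CPM in WT (91, 63 and 64 counts) and 19.2, 20.6 and 14.2 CPM in dKO (100, 85 and 217 counts). Again dKO replicate 3 was lowest, while the highest value also belonged to dKO, in replicate 2. The log2 fold change was -0.15 ± 0.14 (SE; edgeR adjusted p = 0.735), with a 95% interval from -25.7% to 9.11%. Without dKO replicate 3, the log2 fold changes of Myh9 and Myh10 turned to 0.022 and 0.088. Myh10 (ENSMUSG00000020900) lies on chromosome 11, 68691559 to 68816632. The counts are per gene and not per exon, so whether exons were removed cannot be read from them, and no fall of either targeted gene passed the test.

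Myh14, the gene of the myosin IIC heavy chain, is not among the floxed genes and had the smallest p of the tested members. It was at 12.02, 14.6 and 14.5 CPM in WT and 17.8, 17.2 and 13.3 CPM in dKO. The first 2 dKO libraries stood above all WT libraries, and dKO replicate 3 stood inside the WT range. Its log2 fold change was 0.17 ± 0.15 (SE; edgeR adjusted p = 0.720), with a 95% interval from -8.41% to 38.4%, and it was 0.37 without dKO replicate 3, 0.062 without WT replicate 1 and 0.088 without dKO replicate 1. Myh14 (ENSMUSG00000030739) lies on chromosome 7, 44605803 to 44670843. The 3 heavy chains summed to 96.7 ± 5.79 CPM in WT and 96.8 ± 9.82 in dKO (mean ± SD, n = 3 each, as for every group mean given without SE; exact permutation test, two-sided, p = 1.0), and Myh9 and Myh10 together to 83.0 ± 5.70 and 80.7 ± 7.51 CPM (exact permutation p = 0.6). With 3 libraries against 3, such a test cannot go below 0.1.

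Within each library, Myh9 took the largest share of heavy chain counts. Its share was 66.6%, 66.5% and 66.3% in the WT libraries and 63.2%, 63.6% and 67.9% in the dKO libraries. Exact Clopper-Pearson 95% intervals, which cover counting error only, were 62.0% to 71.0% for WT replicate 1 and 65.3% to 70.4% for the deeper dKO replicate 3. The WT libraries lay within 1 point of each other, while dKO held both the lowest shares and the highest. Myh10 took 20.8%, 19.4% and 17.8% in WT and 19.0%, 19.8% and 16.5% in dKO. Myh14 took 12.6%, 14.2% and 15.9% in WT and 17.7%, 16.6% and 15.5% in dKO, so that only dKO replicate 3 fell inside the WT range. Means differed by -1.52 points for Myh9, -0.878 for Myh10 and 2.40 for Myh14 (two-sided exact permutation p of 0.4, 0.6 and 0.2, unadjusted).

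A heavy chain gene with longer exons collects more reads, so levels between genes are compared per kilobase of exon. On that scale Myh9 made up 57.5% ± 0.588 of the heavy chains in WT and 55.4% ± 2.76 in dKO, Myh14 21.8% ± 2.36 and 25.2% ± 1.40, and Myh10 20.7% ± 1.77 and 19.5% ± 1.65. The per-kilobase ratio of Myh9 to Myh10 was 2.59, 2.77 and 3.01 in WT and 2.69, 2.60 and 3.32 in dKO. That of Myh9 to Myh14 was 2.98, 2.64 and 2.35 in WT and 2.01, 2.16 and 2.46 in dKO. Myh10 and Myh14 stood close to each other, at a ratio of 1.15, 0.952 and 0.781 in WT and 0.748, 0.833 and 0.740 in dKO. The exon length used was the union of all annotated exons (12.928 kb for Myh9). By the longest transcript (7.433 kb for Myh9) the WT mean of Myh9 over Myh10 moved from 2.79 to 3.61, that of Myh9 over Myh14 from 2.66 to 4.13, and that of Myh10 over Myh14 from 0.961 to 1.15. Myh9 led in every library on both lengths, whereas the order of Myh10 and Myh14 changed with the length and between libraries.

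**Figure D3:**
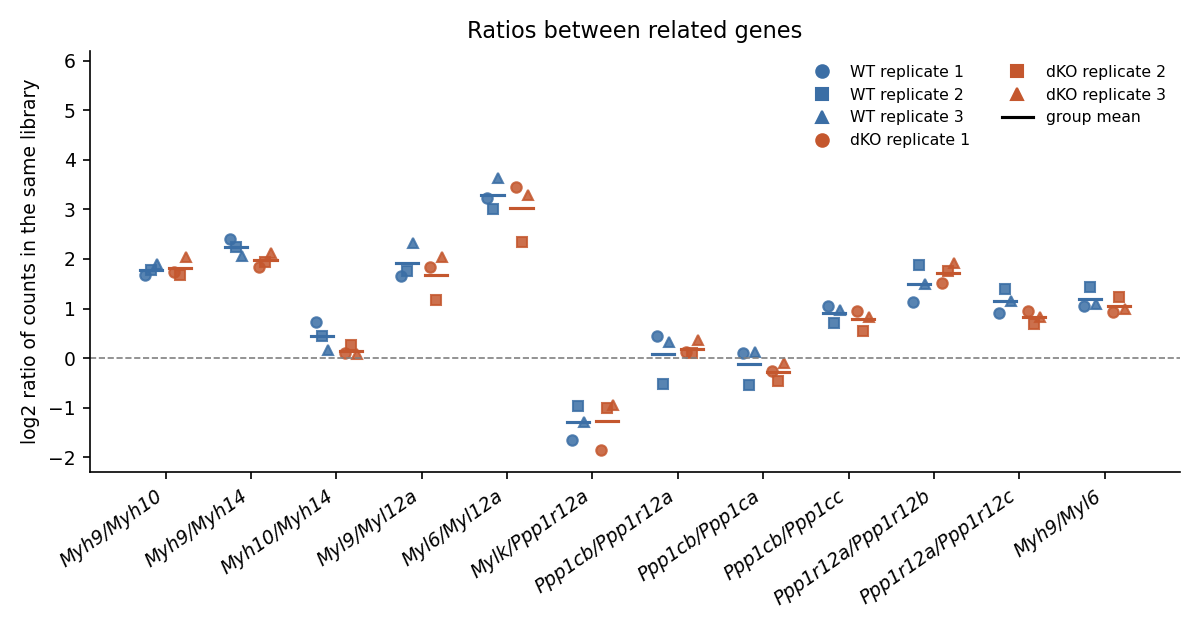
Log2 ratio of the counts of paired genes within the same library, for the 12 ratios in which no library had a count of 0, with WT in blue, dKO in orange, a symbol for each replicate and a line at each group mean. Blue and orange points share a range in every pair, and Myh9/Myh10 stays between 3.20 and 4.11 as a plain count ratio.

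Because a ratio within a library does not depend on how libraries are scaled, 15 ratios were compared as a family between the groups on the log2 scale with 0.5 added to each count. The WT and dKO values overlapped in all 15. The smallest two-sided exact permutation p was 0.2, for Myh9/Myh14, Myh10/Myh14 and Ppp1r12a/Ppp1r12c, and 0.818 after Benjamini-Hochberg adjustment over the 15. Myh9/Myh10 differed by 0.037 (dKO minus WT; p = 0.8, exact), Myh9/Myh14 by -0.26 and Myh10/Myh14 by -0.30. The last of these means that Myh10 held 1.38 ± 0.266 counts for each Myh14 count in WT and 1.11 ± 0.0739 in dKO, with WT replicate 3 inside the dKO range.

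Among the light chains, Myl6, which encodes the essential light chain of nonmuscle and smooth muscle myosin, had the highest counts. It was at 30.6, 25.3 and 28.6 CPM in WT and 33.4, 28.1 and 29.3 CPM in dKO. The highest value was that of dKO replicate 1, and 2 dKO libraries lay inside the WT range. Between the groups the log2 fold change was 0.087 ± 0.115 (SE; edgeR adjusted p = 0.822). Myl6 (ENSMUSG00000090841, chromosome 10, 128490860 to 128494145) lies next to Myl6b, an alternative essential light chain gene, which had only 3 counts in WT and 1 in dKO. Myl6 thus held nearly all essential light chain counts, 332 in WT and 738 in dKO.

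Myl9 encodes the regulatory light chain form that is abundant in smooth muscle and pericytes. Its levels were 10.3, 10.8 and 11.5 CPM in WT and 10.9, 12.6 and 12.4 CPM in dKO, with only dKO replicate 1 inside the WT range. This gave a log2 fold change of 0.16 ± 0.16 (SE; edgeR adjusted p = 0.756), and the 95% interval runs from -10.5% to 39.3%. Myl9 (ENSMUSG00000067818) lies on chromosome 2, 156775420 to 156781658.

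Myl12a and Myl12b, the regulatory light chain genes that most nonmuscle cells are known to use, had far lower counts. The part of their shared sequence and of the Gm49909 overlap in these low counts was not tested. Myl12a had 15, 10 and 9 counts in WT and 16, 23 and 46 in dKO, which is 3.28, 3.17 and 2.30 CPM against 3.07, 5.58 and 3.00 CPM. Only dKO replicate 2 stood above the WT range, and the other 2 dKO libraries lay inside it. The log2 fold change of 0.26 ± 0.32 (SE; edgeR adjusted p = 0.799) has a 95% interval from -22.4% to 86.0%, the widest of the 9. Leaving out a library moved it to 0.051 (without dKO replicate 2), 0.12 (without WT replicate 3) or 0.52 (without dKO replicate 3). Myl12b had 3, 0 and 3 counts in WT and 3, 0 and 11 in dKO, too few to test; a count of 0 allows up to 0.950 CPM in WT replicate 2 and 0.728 CPM in dKO replicate 2.

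The light chain ratios followed from these levels. Myl9 held 3.84 ± 1.01 counts for each Myl12a count in WT and 3.32 ± 0.958 in dKO, and per kilobase of exon 11.1 ± 2.92 and 9.59 ± 2.77. By the longest transcript the latter was 6.60 ± 1.73 and 5.70 ± 1.65, so Myl9 exceeded Myl12a in every library on both lengths. Ratios with Myl12a or Myl12b carry the limit on their counts given above. Myl12a held 5.0 and 3.0 counts for each Myl12b count in WT replicates 1 and 3, and 5.33 and 4.18 in dKO replicates 1 and 3. The regulatory light chain counts summed to 14.2, 13.9 and 14.5 CPM in WT and 14.6, 18.2 and 16.1 CPM in dKO. The groups of this sum did not overlap (two-sided exact permutation p = 0.1, the smallest possible), but they did overlap once each gene was divided by its exon length.

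Placed side by side per kilobase of exon, the summed values of the chain classes were close, with limits for Myl6 and the regulatory light chains. The regulatory sum includes Myl12a and Myl12b, where the part of the Gm49909 overlap in the low counts was not tested. Both lengths used for Myl6 (3187 bases of exon union, 3040 of the longest transcript) cover nearly its whole gene. Its coding transcripts together hold only 1969 distinct 50-base windows. Its level per kilobase may therefore be understated on both lengths, which was not tested. In WT the heavy chains summed to 8.64 ± 0.498 CPM per kilobase, Myl6 was at 8.84 ± 0.830, and the regulatory light chains summed to 10.4 ± 0.415. In dKO the values were 8.79 ± 0.963, 9.50 ± 0.868 and 11.6 ± 1.01. By the longest transcript the order changed, with heavy chains at 13.2 ± 0.776, Myl6 at 9.27 ± 0.870 and regulatory light chains at 11.3 ± 0.333 in WT. Myl9 alone gave 9.33 ± 0.522 of the regulatory sum in WT by exon length.

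Over the 10 genes, the WT order by CPM per kilobase of exon was Myl9 (9.33 ± 0.522), Myl6 (8.84 ± 0.830), Myh9 (4.97 ± 0.302), Ppp1r12a (2.49 ± 0.294), Ppp1cb (1.99 ± 0.587), Myh14 (1.89 ± 0.201), Myh10 (1.79 ± 0.199), Myl12a (0.867 ± 0.160), Mylk (0.745 ± 0.239) and Myl12b (0.171 ± 0.149). Over all 6 libraries the ranges of Myl9 and Myl6 overlapped each other, and each of Ppp1r12a, Ppp1cb, Myh14, Myh10 and Myl12a overlapped the next in that order, while Mylk (0.485 to 0.956) stayed above Myl12b (0 to 0.276). On this length Myh9 stood apart from both neighbours, from 4.50 to 5.29 CPM per kilobase over all 6 libraries. By the longest transcript it did not stand apart from Myl6, at 8.64 ± 0.526 against 9.27 ± 0.870 in WT. The Myh9/Myl6 ratio was then 1.10 in WT replicate 2. The place of Myl6 also carries the limit on its length given above. In dKO the order by exon union was the same except that Myh14 (2.22 ± 0.338) passed Ppp1cb (1.98 ± 0.209), a difference within their spread.

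Mylk encodes myosin light chain kinase, which phosphorylates the regulatory light chain in response to calcium and calmodulin. Its levels were 5.46, 10.8 and 8.93 CPM in WT and 5.57, 8.98 and 9.53 CPM in dKO. In both groups replicate 1 was the low library, and every dKO value lay inside the WT range. The log2 fold change was 0.061 ± 0.202 (SE; edgeR adjusted p = 0.941). Mylk (ENSMUSG00000022836) lies on chromosome 16, 34745210 to 35002420, where 772 of its exon bases are overlapped by genes on the opposite strand that held 6 counts in all.

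Neither phosphatase subunit gene passed the test. Ppp1r12a, which encodes the subunit that brings the phosphatase to myosin, was at 17.3, 20.9 and 21.7 CPM in WT and 20.2, 18.0 and 18.5 CPM in dKO, all 3 dKO values within the WT range. Its log2 fold change was -0.073 ± 0.128 (SE; edgeR adjusted p = 0.877). Ppp1cb, the catalytic subunit, was at 23.4, 14.6 and 27.0 CPM in WT and 21.9, 19.2 and 23.7 CPM in dKO, and the WT range held every dKO value because WT replicate 2 was low. Its log2 fold change was 0.0053 ± 0.132 (SE; edgeR adjusted p = 0.994), and without WT replicate 2 it was -0.18. Ppp1r12a (ENSMUSG00000019907) lies on chromosome 10, 108162193 to 108284475, and Ppp1cb (ENSMUSG00000014956) on chromosome 5, 32458843 to 32517433.

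**Figure D4:**
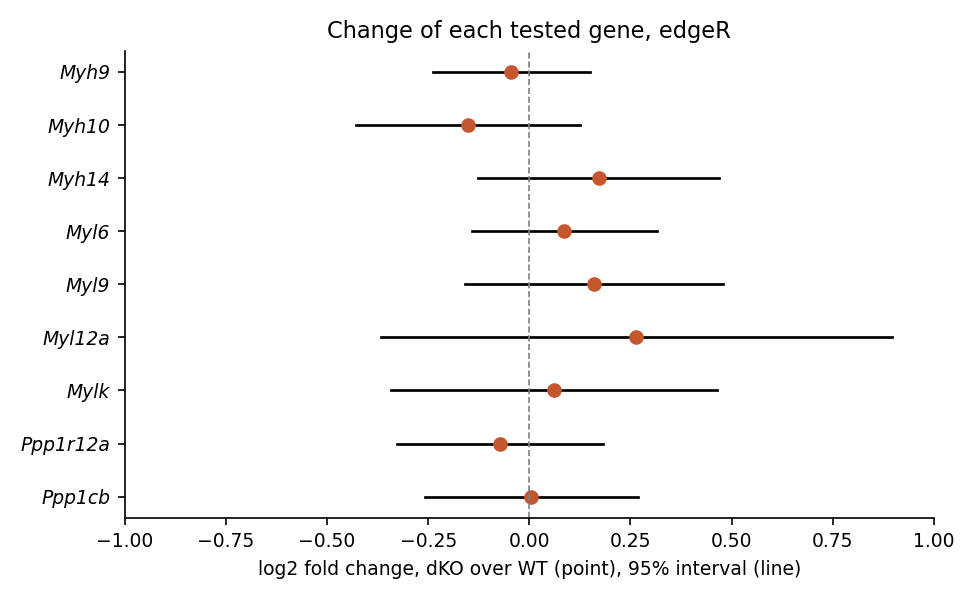
Log2 fold change of dKO over WT (point) and its 95% interval (line) for the 9 tested members, from edgeR, with a dashed line at 0. All 9 intervals cover 0, with Myh9 the narrowest (-0.24 to 0.15) and Myl12a the widest (-0.37 to 0.90).

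Related phosphatase genes gave the context for these levels. Ppp1ca, another catalytic subunit gene, was at 21.9, 21.2 and 24.99 CPM in WT and 26.3, 26.4 and 25.3 CPM in dKO; its groups did not overlap, but it was not called (log2 fold change 0.19 ± 0.12, SE; edgeR adjusted p = 0.562). Rad9a, on the opposite strand, overlaps 225 exon bases of Ppp1ca and held 74 counts against 265 (WT) and 634 (dKO) for Ppp1ca. Ppp1cb held 0.946 ± 0.225 counts for each Ppp1ca count in WT and 0.831 ± 0.105 in dKO, and 1.89 ± 0.217 and 1.73 ± 0.240 for each count of Ppp1cc, the remaining catalytic subunit gene. Ppp1cc shares 58.5% of its 50-base windows with other genes, mostly the pseudogene Ppp1ccb, so its counts are uncertain. Of the targeting subunits, Ppp1r12a held 2.90 ± 0.738 counts for each Ppp1r12b count in WT and 3.32 ± 0.469 in dKO, and 2.25 ± 0.380 and 1.77 ± 0.168 for each Ppp1r12c count. The Ppp1r12a/Ppp1r12c ratios were 1.88, 2.64 and 2.24 in WT and 1.94, 1.61 and 1.77 in dKO, with only dKO replicate 1 inside the WT range. Mylk held 0.414 ± 0.0994 counts for each Ppp1r12a count in WT and 0.431 ± 0.134 in dKO, and Ppp1cb 1.10 ± 0.353 and 1.15 ± 0.119. Per kilobase of exon the Ppp1cb/Ppp1r12a ratio was 0.808 ± 0.259 in WT and 0.842 ± 0.0877 in dKO.

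Other genes of the pathway were followed in 6 lists, of which 28 genes were tested and 0 called by edgeR, DESeq2 or limma-voom. By edgeR 2 passed an unadjusted p under 0.05. Over all genes tested, edgeR called 1.92%, and 12.5% passed an unadjusted p under 0.05. With so low a share called, 0 of 28 is not a result about the pathway. Of 11 tested light chain kinase genes, 0 were called and the median log2 fold change was 0.021. Of 4 further phosphatase genes, 0 were called (median 0.17), with the smallest p for Ppp1r12b (-0.38 ± 0.22, SE; edgeR adjusted p = 0.477). Of 5 heavy chain regulators, 0 were called (median -0.095), with the smallest p for Unc45a, a myosin chaperone (0.25 ± 0.22, SE; edgeR adjusted p = 0.721).

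Most other class II myosin genes had no counts. Of 11 sarcomeric and smooth muscle heavy chain genes, 6 had no count in any library and only Myh11, the smooth muscle heavy chain, was abundant enough to test, at 6.99, 7.92 and 9.18 CPM in WT and 8.06, 5.34 and 8.16 CPM in dKO (log2 fold change -0.075 ± 0.197, SE; edgeR adjusted p = 0.924). Of 8 other light chain genes, 5 had no count and none could be tested.

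Which cells the myosin reads came from cannot be read from these libraries, since fewer cells of a type and less RNA per cell cannot be told apart in sorted pools. Markers of the labelled cell type were low. All 12 RGC markers had at least 1 count over the 6 libraries, but only 3 were abundant enough to test. In WT, Pou4f2 and Pou4f3 had 0 counts and Pou4f1 had 1, against 7, 1 and 13 in dKO, which holds the deeper replicate 3. The 12 summed to 24.3 to 26.8 CPM in WT and 29.8 to 31.9 CPM in dKO, without overlap. That sum averaged 25.6 CPM in WT and 30.8 in dKO. Nefl gave the largest rise within it and Isl1 the largest fall, with their values below. Slc17a6 (0.421 CPM in WT, 1.23 in dKO), Nefm (0.389 and 1.46) and Pou4f1 (0.0728 and 0.469) were also higher in dKO without overlap. These genes, chosen after their values were seen, had too few counts to test. Only Isl1 was lower without overlap. Of the 3 tested markers, 1 had a positive log2 fold change and 2 a negative one. Thy1, which led the list, was at 10.7 ± 0.359 CPM in WT and 10.3 ± 1.13 in dKO. Nefl, a neurofilament gene chosen after its values were seen, was the 1 RGC marker called, at 2.24 ± 0.718 CPM in WT and 7.16 ± 0.583 in dKO (log2 fold change 1.63 ± 0.28, SE; edgeR adjusted p = 4.0e-05), and Isl1, chosen likewise, was at 7.05 ± 0.810 and 4.24 ± 0.940 CPM (edgeR adjusted p = 0.138). Müller glia and astrocyte markers, led by Glul, summed to 2659 to 2743 CPM in WT and 2728 to 2900 in dKO. Microglia and macrophage markers, led by Ctss, summed to 600.1 to 675 CPM in WT and 654 to 669 in dKO. Endothelial markers, led by Kdr, summed to 222 to 271 CPM in WT and 224 to 237 in dKO, mostly from Kdr and Flt1 (163 and 73.9 CPM in WT). The others were low and went both ways. Chosen after their values were seen, Cldn5 (2.10 CPM in WT, 0.574 in dKO) and Cdh5 (1.24 and 0.227) were lower in dKO without overlap. Both had too few counts to test. Esam (2.58 and 3.32), chosen likewise, was higher without overlap but not called. Mural cell markers, which include Myh11, 9 of 10 with counts and led by Rgs5, summed to 170 to 178 CPM in WT and 183 to 187 in dKO, without overlap. Bipolar cell markers, led by Trpm1, summed to 174 to 186 CPM in WT and 127 to 129 in dKO, without overlap, and 4 of 6 were called lower by edgeR. A set of 7 rod markers, led by Gnat1, summed to 82.7 to 94.1 CPM in WT and 159 to 198 in dKO, also without overlap, and 6 of the 7 were called higher. T and NK cell markers, led by Lck, summed to 26.0 to 28.2 and 25.3 to 31.5 CPM. Among all genes tested, edgeR called 1.92%, and 17.0% had groups that did not overlap. In the remaining lists edgeR called 1 of 8 tested genes higher for Müller glia and astrocytes, 1 of 8 higher for microglia and macrophages, 1 of 4 lower for T and NK cells, and none of 8 mural or 4 endothelial genes. The part of these cells in the level of any myosin gene was not tested.

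**Figure D5:**
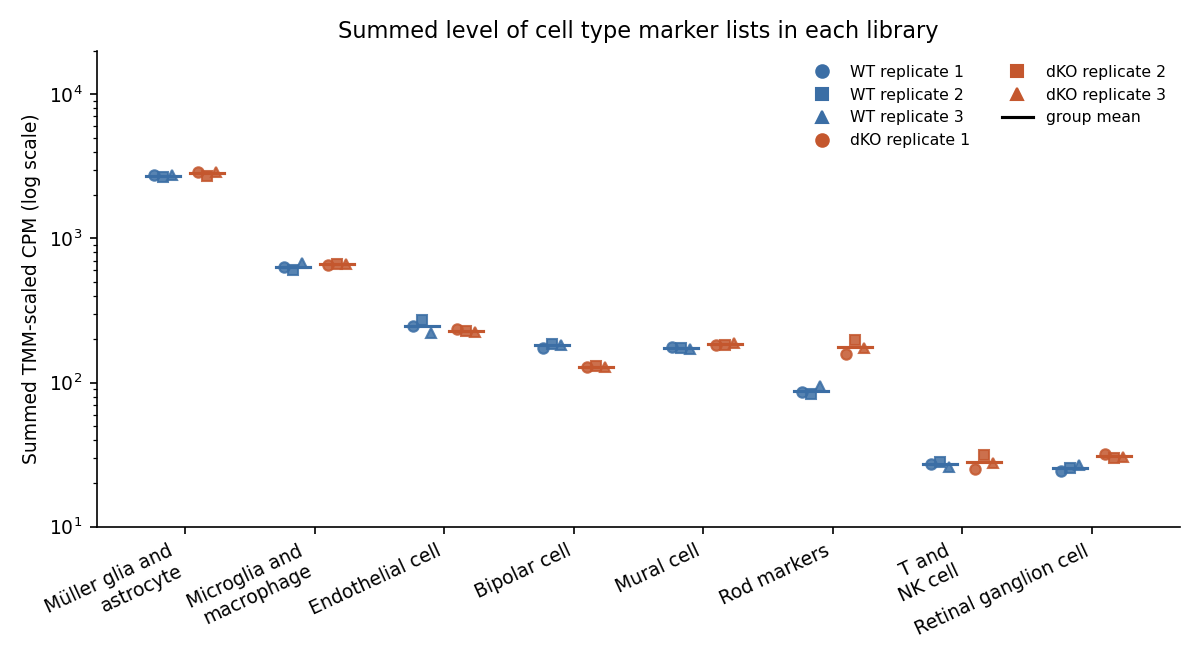
Summed TMM-scaled CPM of the marker lists described here in each library on a log scale, with WT in blue, dKO in orange, a symbol for each replicate and a line at each group mean. RGC markers are the lowest of these in WT, roughly level with T and NK cell markers, and Müller glia and astrocyte markers the highest.

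Genes whose levels followed Myh9 most closely over the 6 libraries were Kmt2e (Pearson r 0.996), Zfp326 (0.989) and Galnt18 (0.987), and for Myh10 they were Trim56 (0.992), Tmem33 (0.979) and Tril (0.970). These were the 3 highest of 8286 genes compared for each, of which 38 passed an r of 0.9 with Myh9 and 30 with Myh10. Kmt2e was at 13.8, 17.4 and 11.7 CPM in WT and 13.8, 16.3 and 10.5 CPM in dKO, with the same order of libraries as Myh9. All points share the same libraries and scaling, so these are descriptions only.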

How the data were processed

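RNA sequencing libraries of FACS-sorted retinal ganglion cells (3 WT, 3 dKO) were made from total RNA with a stranded kit, per the labels' protocols. The submitters' processing notes name STAR 2.7.0d, DESeq2 1.22.2 and GRCm38; the sources used here do not give the counting program, its strand setting or the annotation. The deposited table holds raw counts per gene. The 10 members, the lists and the ratios were chosen with earlier results of these data known. Genes were filtered with filterByExpr (minimum count 10, total 15), and TMM scaling was applied before the test, made with edgeR 4.0.16 (quasi-likelihood, both groups, no covariates, Benjamini-Hochberg, adjusted p under 0.05); the script was tested on simulated data. Ratios used 0.5 added to each count and exact permutation over libraries. Exon lengths came from GENCODE M21, which holds 55394 of the 55573 gene identifiers. All members were named; of each pathway list, the gene with the smallest p and of each marker list the gene with the highest mean, except where a withheld item is not reported here. Alternatives included DESeq2 1.42.0, limma-voom (limma 3.58.1), other scalings and filters, and leaving out each library.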

Additional observations from a re-analysis of the deposited data

How the results depend on the processing

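Under 15 alternatives none of the tested members and none of the tested genes of the pathway lists was called. The pathway genes tested were 28 in the main fit and 27 to 42 in the alternatives. Over the 135 refits of the 9 members tested in the main fit, the adjusted p (edgeR, DESeq2 or limma-voom) ran from 0.301 to 0.9998. Scaling by library totals, which include the ribosomal row, put the median of all genes at 1.21 on the log2 scale; the members' median was then 1.29, with Myh9 at 1.13, Myh10 at 0.99 and Ppp1r12a at 1.15. Signs near 0 turned for Mylk (-0.015) and Ppp1cb (-0.0077) with DESeq2. With replicate number as a block the members' median was -0.029, with Mylk at -0.029 and Ppp1cb at -0.032, and 0 members were called. The Myh9/Myh10 difference stays at 0.037 by construction with such a block, so it is no check. Same-numbered libraries deviated together with r of only 0.013 to 0.028, although each correlated best with its own number. The numbers were therefore not taken as pairs. The WT Myh9/Myh10 level per kilobase moved to 3.61 with the longest transcript. Leaving out each library in turn gave log2 fold changes of 0.021 to 0.12 for the members' median, -0.082 to 0.022 for Myh9, -0.24 to 0.088 for Myh10, 0.062 to 0.37 for Myh14, 0.051 to 0.52 for Myl12a, -0.21 to 0.25 for Mylk, -0.19 to 0.00018 for Ppp1r12a and -0.18 to 0.18 for Ppp1cb. The log2 ratio differences ran from -0.074 to 0.10 for Myh9/Myh10, -0.53 to 1.48 for Myl12a/Myl12b, -0.38 to 0.054 for Myl9/Myl12a, -0.48 to 1.20 for Myl9/Myl12b, -0.44 to 0.11 for Myl6/Myl12a, -0.15 to 0.31 for Mylk/Ppp1r12a and -0.19 to 0.29 for Ppp1cb/Ppp1r12a, and the Myh9 share difference per kilobase from -3.68 to -1.14 points. The 2 libraries left in an arm were assumed to vary like the other group. Ratios with Myl12b or Myl6b could not be computed with nothing added to the counts. Over all genes 162 were called, against 52 with DESeq2, 3 with library totals and 90 without WT replicate 1; the other settings gave 116 to 208, the highest with a filter of CPM of at least 1. The cause of these moves was not tested. Low counts limit Myl12a and Myl12b most, and the part of depth and of shared sequence in them was not tested.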
